A study of Mus musculus with 8 samples.

Results

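The MYC network factors and the long non-coding RNA Pvt1 were examined in UPS (undifferentiated pleomorphic sarcoma) tumours of the mouse hind limb. The 10 genes, taken by symbol from the deposited table of raw counts, were Myc, Mycn, Max, Mlx, Mxd1, Mxi1, Mxd3, Mxd4, Mnt and Pvt1, out of 26667 genes in the table. RNA-seq covered 4 KP tumours (KP 5 to KP 8) and 4 KPH2 tumours (KPH2 1 to KPH2 4), 1 library per tumour, and the study set out to learn what changes when sarcomas lose HIF-2α. KP mice carried Trp53 fl/fl and were labelled wild type for Epas1, and KPH2 mice carried Epas1 fl/fl, which encodes HIF-2α, in addition. Both strains were of mixed 129/C57BL/6 descent. Their tumours arose where adenovirus expressing Cre-recombinase had been injected into muscle, so both groups share the deletion of Trp53, and only infected cells and their progeny recombine. RNA came from sections of fixed whole tumours, in which sarcoma cells, stroma and muscle are mixed, so fewer cells of a type and less RNA per cell cannot be told apart. The ages and sexes of the individual animals are not given in the sources used here.

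MYC and its relative MYCN are transcription factors that bind DNA only as pairs with MAX, most strongly at the E-box CACGTG, and they raise genes of ribosome production, metabolism and cell division. The repressors MXD1, MXI1, MXD3, MXD4 and MNT compete for MAX and for the same sites, and MLX joins MXD1, MXD4 and MNT as well as the glucose-sensing factors MLXIP and MLXIPL. Pvt1 lies next to Myc, and the 2 genes are often gained together in tumours.

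The 10 genes were chosen by their family and, with earlier results known, by their counts in these same tumours. Their values therefore stand here as a description. The intervals and p-values that the fits gave for them are likewise a description and not a test. Deposited counts summed to between 6463221 and 13155510 per tumour. KPH2 1, the tumour that is missing from the authors' smaller table of normalized values, was kept apart, and KP tumours were compared with KPH2 2 to KPH2 4. The study's methods excluded 1 knockout tumour, which they do not name, as a technical outlier in a principal component analysis, so each value of KPH2 1 given here may come from a library that the study rejected. A technical and a biological origin of its values cannot be told apart in this design. Epas1 was counted at 59.1, 83.1, 86.7 and 83.9 CPM (counts scaled to a common library size of 1000000) in KP 5 to KP 8, at 53.2, 37.6 and 42.4 CPM in KPH2 2 to KPH2 4, and at 32.7 CPM in KPH2 1. Every KPH2 tumour lay below every KP tumour, but the log2 fold change of −0.81 (SE 0.19) did not pass the threshold with edgeR's quasi-likelihood test (adjusted p = 0.0742, Benjamini-Hochberg), and the adjusted p was 0.00763 with DESeq2. The summed level of 8 mesenchymal markers was between 11663 and 35607 CPM in every tumour, while Epcam, Krt19 and Cldn4, which mark epithelium, stayed below 1.80 CPM. Skeletal muscle markers differed between the groups: the 30 genes summed to 1846 to 3385 CPM in KP, 4356 to 19677 CPM in KPH2 2 to KPH2 4 and 1536 CPM in KPH2 1. All 30 had a positive log2 fold change, as did 7143 of the 14867 genes tested. EdgeR called 3 of them, all higher, beside 1.24% of all tested genes called higher. For 14 of the 30, KPH2 2 to KPH2 4 lay above every KP tumour (8.67% of all tested genes). The 6 epithelial markers summed to 3.99 to 7.34 CPM in KP, to 472, 49.997 and 524 CPM in KPH2 2 to KPH2 4 and to 58.5 CPM in KPH2 1. Krt8 and Krt18 made up nearly all of these sums in the KPH2 tumours. With edgeR, 2 of the 3 epithelial markers tested were called higher (1.24% of all genes). Of the 8 mesenchymal markers, 1 was called lower (0.72% of all genes). Of the 10 macrophage and 8 endothelial markers, 0 and 1 had a positive log2 fold change, and edgeR called none of either list (1.96% of all tested genes). For 2 and 3 of them, KPH2 2 to KPH2 4 lay below every KP tumour (8.19% of all tested genes). The part of these cells in the values that follow was not tested beyond a muscle covariate.

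The promoters of the network genes were searched for the E-box that the network itself binds. A promoter of 8 of the 10 genes was in the RefSeq table of GRCm38.p6 (250 bases before and 50 after a gene start), and 4 of the 8 held CACGTG, which reads the same on both strands. Of the genes in the count table, 18301 had a promoter there, and 9.06% of these held it. Of all 32851 promoters in that table, 7.15% did. Each window is shown 5′ to 3′ on the gene's strand, with the E-box in capitals.

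Max (chr12:76962234-76962263, minus strand): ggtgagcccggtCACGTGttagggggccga

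Mlx (chr11:101087238-101087267, plus strand): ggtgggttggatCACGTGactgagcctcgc

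Mnt (chr11:74830789-74830818, plus strand): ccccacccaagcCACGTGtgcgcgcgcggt

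Mxd4 (chr5:34187912-34187941, minus strand): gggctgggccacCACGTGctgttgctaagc

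The first base of the E-box lay 3 bases before the gene start used in the table for Max, 40 for Mlx, 123 for Mnt and 219 for Mxd4. The table takes 1 start per promoter, and for Max, Mlx and Mnt this is not the outermost start of the gene spans given further on. Relative to those spans the E-boxes of Max and Mlx lie inside the gene and that of Mnt ends at its first base, while the start of Mxd4 is the same in both. Both common partners, Max and Mlx, were among the 4, with 2 of the 5 repressors. For Mycn, Mxd1, Mxi1 and Mxd3 these letters were not in the window. A match describes the letters and was not tested as a binding site. Myc and Pvt1 were not in the table.

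Myc (Entrez Gene 17869, chr15:61985341-61990361, plus strand) was counted at 67.5, 64.4, 88.1 and 51.1 CPM in KP 5 to KP 8. KPH2 2, KPH2 3 and KPH2 4 had 83.4, 49.4 and 56.3 CPM, so the groups overlapped, with KP 7 and KPH2 2 the highest and KPH2 3 and KP 8 the lowest of these 7. KPH2 1 had 257 CPM, 3.91-fold the mean of the other 7 tumours and 1.997 higher on the log2 scale, where the SD of the other 7 was 0.33. The log2 fold change of KPH2 2 to KPH2 4 over KP was −0.10 (SE 0.24, 95% interval −0.65 to 0.45), and with KPH2 1 included it was 0.72 (SE 0.51, −0.43 to 1.87).

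Pvt1 (Entrez Gene 19296, chr15:62037986-62260215, plus strand) starts 47625 bases beyond the end of Myc. It was counted at 51.9, 55.7, 44.5 and 39.2 CPM in KP 5 to KP 8 and at 51.5, 29.5 and 46.3 CPM in KPH2 2 to KPH2 4. These 7 tumours again overlapped, with KPH2 3 the lowest. KPH2 1 had 699.6 CPM, from 8738 reads, where the other libraries held between 296 and 699 reads. That was 15.4-fold the mean of the other 7 and 3.96 higher on the log2 scale (SD of the other 7, 0.31). The log2 fold change was −0.17 (SE 0.22, −0.68 to 0.34) over 7 tumours and 2.11 (SE 0.97, −0.10 to 4.32) over all 8.

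Among the 14867 genes tested, ordered by how far KPH2 1 lay above the mean of the other tumours on the log2 scale, Pvt1 stood at rank 5 and Myc at rank 92. A difference of 1.64 marked the upper 1% of all tested genes. Pvt1 stood further above the rest than Myc did in KPH2 1. Per kb of exon, the ratio of Pvt1 to Myc was 0.596 to 1.02 in the other 7 tumours and 3.21 in KPH2 1. Over the 7 tumours the log2 levels of Myc and Pvt1 had r = 0.60 and rho = 0.50, and over all 8, where KPH2 1 stands alone at the upper end, r = 0.95 and rho = 0.67. Both correlations are a description of few libraries prepared alike.

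**Figure D1:**
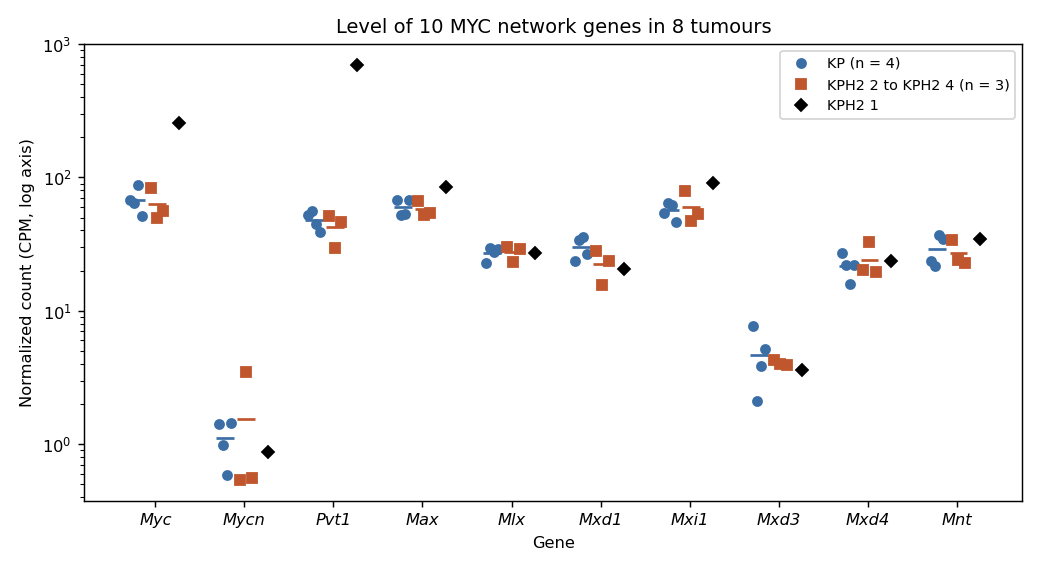
Normalized counts (CPM, log axis) of the 10 genes, with 1 point per tumour for KP (circles, n = 4), KPH2 2 to KPH2 4 (squares, n = 3) and KPH2 1 (diamonds); short lines are group means of KP and of KPH2 2 to KPH2 4. KPH2 1 stands far above the rest for Myc (257 CPM) and Pvt1 (699.6 CPM), and the other points of the 2 groups overlap for every gene.

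Mycn (Entrez Gene 18109, chr12:12936093-12941836, minus strand), which is mostly used in embryonic and neural cells, was near the limit of detection. Its levels were 1.41, 0.989, 0.591 and 1.43 CPM in KP 5 to KP 8 and at 0.538, 3.49 and 0.562 CPM in KPH2 2 to KPH2 4, with 0.881 CPM in KPH2 1. Only KPH2 3, with 35 reads, was above 19 reads. The log2 fold change of 0.43 (SE 0.70, −1.17 to 2.02) rests on that tumour: without KPH2 3 it was −1.03.

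Max (Entrez Gene 17187, chr12:76937269-76962323, minus strand), the shared partner, varied little. Its level was 67.1, 52.3, 53.4 and 67.6 CPM in KP 5 to KP 8, and 66.0, 52.7 and 54.2 CPM in KPH2 2 to KPH2 4. Both groups covered nearly the same range. KPH2 1, at 85.0 CPM, was the highest of 8, 1.44-fold the mean of the other 7 and 0.53 higher on the log2 scale (SD of the other 7, 0.18). Over 7 tumours its log2 fold change was −0.06 (SE 0.17).

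Mlx (Entrez Gene 21428, chr11:101086707-101092207, plus strand), the partner that links this network to MLXIP and MLXIPL, kept a narrow range. It ran from 22.7 to 30.2 CPM over all 8 tumours, with 22.7, 29.7, 27.4 and 29.1 CPM in KP 5 to KP 8, 27.0 CPM in KPH2 1 and 30.2, 23.2 and 29.0 CPM in KPH2 2 to KPH2 4. KPH2 1 lay inside the range of the others. Between the groups the log2 fold change was 0.01 (SE 0.17).

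The 5 MAX-binding repressors had log2 fold changes of both signs. Mxd1 (chr6:86647044-86669234), typical of cells that leave the cycle and differentiate, was counted at 23.7, 34.2, 35.6 and 26.5 CPM in KP 5 to KP 8 and at 28.2, 15.6 and 23.5 CPM in KPH2 2 to KPH2 4. KPH2 3 was the lowest and KPH2 1, at 20.4 CPM, the next lowest. The log2 fold change of −0.42 (SE 0.25, −0.98 to 0.14) had an interval that includes 0, and with a skeletal muscle covariate it was 0.14.

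Mxi1 (chr19:53310128-53373293), which is also known as MXD2, had 54.3, 64.4, 62.3 and 46.3 CPM in KP 5 to KP 8 and 79.1, 47.1 and 53.6 CPM in KPH2 2 to KPH2 4. KPH2 1, at 90.2 CPM, was the highest of 8 and KPH2 2 the second highest. KPH2 1 was 1.55-fold the mean of the other 7 and 0.65 higher on the log2 scale (SD of the other 7, 0.27). Without KPH2 1 its log2 fold change was 0.08 (SE 0.21).

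Mnt (chr11:74830806-74845725), the repressor present in most cell types, was counted at 23.4, 21.8, 37.3 and 34.5 CPM in KP 5 to KP 8 and at 33.9, 24.0 and 22.8 CPM in KPH2 2 to KPH2 4. Within each group some tumours were near 23 CPM and others near 34 CPM, and KPH2 1 had 34.6 CPM. Its log2 fold change was −0.12 (SE 0.25).

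Mxd4 (chr5:34176580-34187710) was counted at 26.93, 22.04, 15.97 and 21.99 CPM in KP 5 to KP 8, at 20.2, 32.7 and 19.45 CPM in KPH2 2 to KPH2 4 and at 23.8 CPM in KPH2 1. KPH2 3, the tumour lowest for Mxd1, was the highest for Mxd4. Its log2 fold change was 0.15 (SE 0.25). Mxd3 (chr13:55325170-55329900), a family member found in dividing cells, was low throughout, between 2.12 CPM in KP 6 and 7.64 CPM in KP 5. Its 3 values in KPH2 2 to KPH2 4, from 3.94 to 4.31 CPM, and the 3.60 CPM of KPH2 1 lay inside that range, and its log2 fold change was −0.22 (SE 0.41).

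None of the 10 genes passed an adjusted p of 0.05 in the edgeR fit, where 292 of the 14867 genes tested did (1.96%). None had an unadjusted p under 0.05 (all genes, 17.8%), none passed with DESeq2 (7.93%) and none passed over all 8 tumours (0.00675%). For none did the KP tumours lie apart from KPH2 2 to KPH2 4, as they did for 16.9% of all genes (8.67% with KPH2 above and 8.19% with KPH2 below), and for none did they lie apart from all 4 KPH2 tumours (8.23%). The median log2 fold change of the 10 was −0.08, beside −0.02 for all tested genes. KPH2 1 was the highest of 8 for 4 of the 10 (Myc, Pvt1, Max and Mxi1), where it was the highest for 17.8% of all genes, and the lowest for none (14.7%). These counts describe genes chosen with their levels known.

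**Figure D2:**
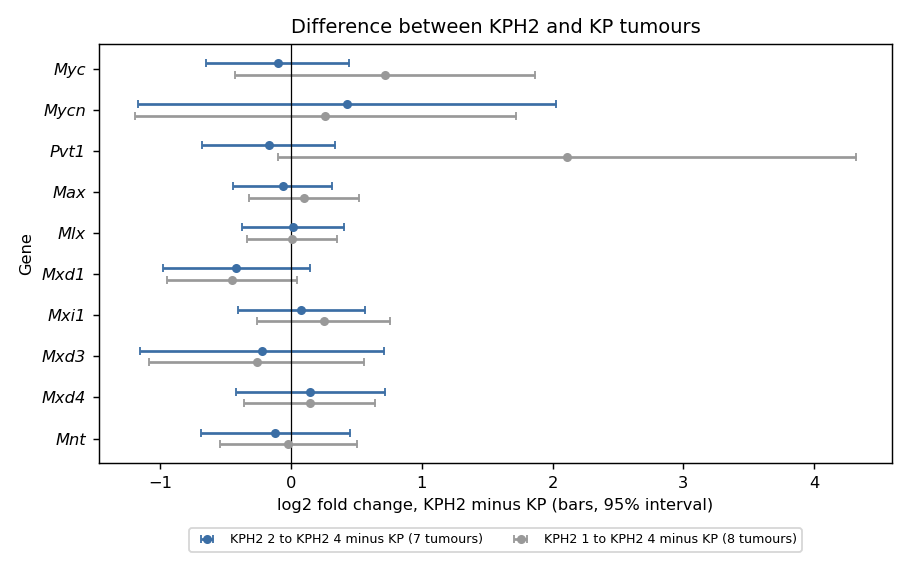
Log2 fold change of KPH2 over KP for each of the 10 genes, with KPH2 2 to KPH2 4 (blue, 7 tumours) and with KPH2 1 added (grey, 8 tumours); points are edgeR estimates and bars 95% intervals. Every interval includes 0, as a description and not a test, since the genes were chosen with their levels known. The estimates of Myc and Pvt1 move from −0.10 to 0.72 and from −0.17 to 2.11 when KPH2 1 is added.

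Compared per kb of exon, which sets levels of genes of unlike length side by side, Max, Myc and Pvt1 led in the other 7 tumours. Their medians were 27.7, 27.6 and 23.4 CPM per kb, with ranges of 26.7 to 34.5 for Max, 21.1 to 37.7 for Myc and 14.9 to 28.1 for Pvt1, which overlap. Mxi1 (17.4 CPM per kb) and Mlx (14.6) followed, each overlapping its neighbour in the order. Mxd1 and Mxd4 (both 5.68), Mnt (5.22) and Mxd3 (3.01 CPM per kb) overlapped one another and stayed below the range of Mlx. Mycn, at 0.370 CPM per kb, lay below the range of Mxd3. In KPH2 1 the order changed at the top, with Pvt1 at 353, Myc at 110 and Max at 43.4 CPM per kb.

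In ratios of levels per kb between network members, KPH2 1 stood outside the range of the rest. Myc to Max was 0.842, 1.03, 1.38 and 0.632 in KP 5 to KP 8, 1.06, 0.785 and 0.870 in KPH2 2 to KPH2 4, and 2.53 in KPH2 1. Myc over the sum of the 5 repressors ran from 0.581 to 0.883 in the other 7 tumours and was 2.22 in KPH2 1. In all tumours but KPH2 1, the repressors together exceeded Myc per kb.

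The chromosome 15 genes around Myc and Pvt1 were examined next. Within 5 Mb of Myc, 58 genes of the table were annotated and 36 tested, of which 33 were other than Myc, Pvt1 and H2afy3. Their median difference between KPH2 1 and the other 7 tumours was −0.02 on the log2 scale, and 29 of the 33 lay within 1 of 0. KPH2 1 was the highest for 5 of them and the lowest for 3, where it was the highest for 17.8% and the lowest for 14.7% of all tested genes. The nearest tested genes upstream are 9930014A18Rik, Fam84b and Trib1, where KPH2 1 had 7.45, 21.9 and 38.7 CPM. The first pair of these genes overlap each other. For 9930014A18Rik, KP tumours had 4.10 to 10.4 CPM and KPH2 2 to KPH2 4 had 1.30 to 1.46 CPM, so the groups did not overlap and KPH2 1 lay among the KP tumours. Its log2 fold change over 7 tumours was −2.15 (SE 0.41, adjusted p = 0.0418, edgeR), and it did not pass over all 8, where it was −1.07 (adjusted p = 0.468). With a muscle covariate the log2 fold change was −2.47, with a larger SE of 0.73 (adjusted p = 0.498), and without single tumours −2.30 to −1.75, past the threshold only without KP 5. EdgeR called 2 of the 33 neighbours, beside 1.96% of all genes. The groups lay apart for Zhx2, Zhx1, Fbxo32, Tmem65, Mtss1, Fam84b and 9930014A18Rik, as they did for 16.9% of all genes. DESeq2 called Zhx1, Fbxo32, Mtss1, Fam84b, 9930014A18Rik and Adcy8, beside 7.93% of all genes. The other neighbour called by edgeR was Fbxo32, a ubiquitin ligase gene of muscle wasting, named here after its values were seen. It had 14.5 to 26.3 CPM in KP, 71.3 to 90.3 CPM in KPH2 2 to KPH2 4 and 22.4 CPM in KPH2 1, with a log2 fold change of 1.85 (SE 0.22, adjusted p = 0.0148), which passed without any single tumour (adjusted p 0.0168 to 0.0479) and under each scaling and filter tried. It was 1.57 over all 8 (adjusted p = 0.161) and 1.45 with the muscle covariate (SE 0.34, adjusted p = 0.414), where it did not pass. Fam84b had 15.7 to 21.6 CPM in KP and 7.38 to 10.8 CPM in KPH2 2 to KPH2 4, again without overlap, with a log2 fold change of −0.92 (SE 0.22, adjusted p = 0.0708 with edgeR and 0.00653 with DESeq2). Trib1 ranged from 25.9 to 61.9 CPM in the other 7 tumours. Downstream, KPH2 1 had 2.56 CPM of Gsdmcl-ps (1.05 to 2.30 in the other 7), 83.0 CPM of Fam49b (65.7 to 91.7) and 233 CPM of Asap1 (137 to 358). Of these 6 neighbours, KPH2 1 was thus outside the others' range for Fam84b and Gsdmcl-ps, and by little.

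Adcy8, an adenylyl cyclase gene whose start lies 2.71 Mb beyond that of Myc, was the exception. It was counted at 33.5, 11.9, 2.81 and 12.4 CPM in KP 5 to KP 8, at 0.269, 3.09 and 2.02 CPM in KPH2 2 to KPH2 4 and at 87.3 CPM in KPH2 1. KPH2 1 was 4.22 above the mean of the others on the log2 scale, rank 3 of the tested genes, but the others spread widely (SD 2.04). The next largest difference among the 33 was 1.2. Over 7 tumours the log2 fold change of Adcy8 was −3.09 (SE 0.94, adjusted p = 0.141 with edgeR and 0.00307 with DESeq2). Over all 8 it was 0.60. Efr3a (230 CPM in KPH2 1, 153 to 201 in the others) and Phf20l1 (143 CPM, 96.6 to 139) were the remaining neighbours with KPH2 1 on top.

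H2afy3, named Macroh2a3 in RefSeq, is a transcribed pseudogene within the span of Pvt1, at chr15:62217541-62219451, on the opposite strand. It was counted at 10.9, 9.46, 10.6 and 9.41 CPM in KP 5 to KP 8, 10.6, 5.89 and 11.9 CPM in KPH2 2 to KPH2 4 and 148 CPM in KPH2 1, a log2 difference of 3.91 beside the 3.96 of Pvt1. The libraries were stranded, but the strand setting of the counting is not given in the sources used here, and if it ignored strand, reads of H2afy3 and Pvt1 cannot be told apart. It is a copy of other macroH2A genes, which adds to the uncertainty of its count. DNA copy number was not measured.

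**Figure D3:**
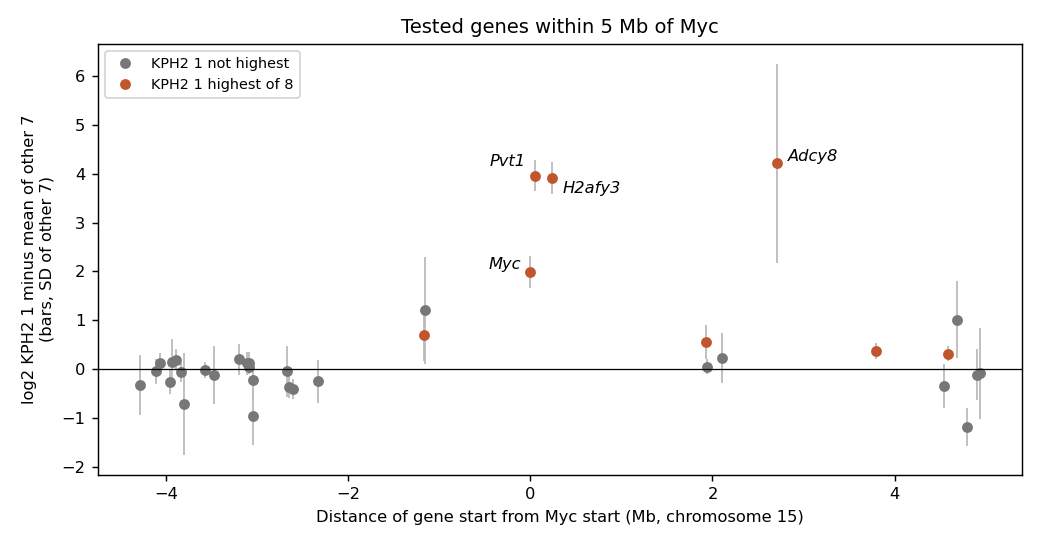
Log2 level in KPH2 1 minus the mean of the other 7 tumours (bars, SD of the other 7) for the 36 tested genes within 5 Mb of Myc, by distance of the gene start in Mb; colour marks genes for which KPH2 1 was the highest of 8. Myc (1.997), Pvt1 (3.96), H2afy3 (3.91) and Adcy8 (4.22) stand above the rest, which lie between −1.19 and 1.2.

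Genes of the wider MYC network were taken as lists of genes other than the 10. Like the 10, these lists were chosen with earlier results of these data known. Their counts stand beside 1.96% of all genes called by edgeR, 17.8% with an unadjusted p under 0.05 and 7.93% called by DESeq2. Of the 4 other network proteins, none passed the edgeR test, 1 had an unadjusted p under 0.05 and DESeq2 called 1. That was Mlxip, the glucose-sensing partner of MLX also known as MondoA. Mlxip had 85.7 to 112 CPM in the KP tumours, 64.4 to 66.8 CPM in KPH2 2 to KPH2 4 and 71.7 CPM in KPH2 1, so every KPH2 tumour lay below every KP tumour, but the log2 fold change of −0.57 (SE 0.14) had an adjusted p of 0.0795 with edgeR. Mga, which encodes a large MAX partner, was at 295 to 368 CPM in the other 7 tumours and 504 CPM in KPH2 1. Mycl, listed as Mycl1, and Mlxipl, the factor known as ChREBP, were low, at up to 7.68 and 2.51 CPM.

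The 13 cofactors, which open or close chromatin with MYC, MAX or the repressors, gave no call with edgeR or DESeq2, and 1 had an unadjusted p under 0.05. Their median log2 fold change was 0.19, with 12 of 13 positive, beside −0.02 for all genes, with 7143 of 14867 positive. KPH2 1 was the highest of 8 for 6 of the 13 (46.2%), beside 17.8% of all genes, with a median difference from the other 7 tumours close to 0 on the log2 scale. The gene past the unadjusted threshold was Sin3b, the corepressor scaffold that MXD proteins recruit. It had 55.6 to 88.7 CPM in KP and 105 to 124 CPM in KPH2 2 to KPH2 4, with 79.1 CPM in KPH2 1 (log2 fold change 0.60, SE 0.18, adjusted p = 0.139, edgeR). For Trrap, the scaffold through which MYC recruits histone acetyltransferases, Ncor1 and Ruvbl1, KPH2 exceeded KP by 0.24, 0.19 and 0.20 on the log2 scale (lowest adjusted p 0.424, edgeR).

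Of the 10 genes for MYC protein turnover, none was called by edgeR or DESeq2, 1 had an unadjusted p under 0.05 and the median log2 fold change was 0.01. Usp28, a deubiquitinase that protects MYC, had 24.3 to 38.2 CPM in KP and 38.8 to 55.7 CPM in KPH2 2 to KPH2 4 (log2 fold change 0.50, SE 0.22, adjusted p = 0.273, edgeR). Aurka, Huwe1 and Skp2 had log2 fold changes of 0.27, 0.20 and −0.14. KPH2 1 was the highest of 8 for none of the 10 (17.8% of all genes).

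Among 40 genes known to be induced by MYC, 1 was called higher in KPH2 2 to KPH2 4 by edgeR, where 1.24% of all tested genes were, and DESeq2 called 3, of which E2f2 and Prmt5 were higher and Slc1a5 lower, beside 7.93% of all genes in either direction. Of the list, 8 had an unadjusted p under 0.05 with higher levels (all genes, 8.5%) and 2 with lower levels (9.26%), and the median log2 fold change was 0.22, beside −0.02 for all genes. The called gene was E2f2, a cell-cycle transcription factor, with 8.31, 13.8, 7.54 and 12.8 CPM in KP 5 to KP 8 and 20.3, 29.3 and 32.6 CPM in KPH2 2 to KPH2 4. The groups did not overlap, and the log2 fold change was 1.37 (SE 0.27, adjusted p = 0.0491, edgeR). Without single tumours the log2 fold change was 1.22 to 1.54 and did not pass (adjusted p 0.0673 to 0.139), and with the muscle covariate it was 1.52 (SE 0.47, adjusted p = 0.514). KPH2 1, at 9.29 CPM, lay inside the range of the KP tumours.

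Slc1a5, a glutamine transporter, went the other way. It was counted at 50.7 to 97.2 CPM in KP, 32.8 to 38.5 CPM in KPH2 2 to KPH2 4 and 160 CPM in KPH2 1, so that KPH2 tumours lay both below and above all KP tumours (log2 fold change over 7 tumours −1.03, SE 0.22, adjusted p = 0.0584 with edgeR and 0.00167 with DESeq2). Prmt5, an arginine methyltransferase, had a log2 fold change of 0.56 (adjusted p = 0.107 with edgeR and 0.0284 with DESeq2), and Ldha, lactate dehydrogenase A, one of 0.54 (0.229 and 0.162).

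In KPH2 1 the MYC-induced targets were high as a group. KPH2 1 was the highest of 8 tumours for 26 of the 40 (65.0%), beside 17.8% of all tested genes. It was above the mean of the other 7 for 38 of 40, beside 7730 of all 14867 genes tested. The median difference from the other 7 was 0.64 on the log2 scale, beside 0.02 for all genes. With 1 tumour, and a list chosen with earlier results of these data known, this has no replicate check and no test.

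The targets named here are some of the 26 that were highest in KPH2 1, and not the first of them in order. Slc1a5, given above, had the largest difference from the mean of the other 7 (1.58 on the log2 scale). Hspd1, Pcna and Shmt2 (0.93, 0.85 and 0.83) stood further above the others than the nucleolar genes named below. Tfrc, the transferrin receptor, had 297 CPM in KPH2 1 and 60.4 to 142 CPM in the other 7. Cdca7, a MYC target of dividing cells, had 61.1 CPM against 25.4 to 29.3 CPM, and Polr1b, a subunit of RNA polymerase I, 104 CPM against 37.4 to 56.0 CPM. The nucleolar genes Npm1, Nop56, Nop16 and Gnl3 had 901, 167, 53.2 and 126 CPM, above the others' highest values of 590, 114, 33.8 and 91.1 CPM. The targets below the mean of the other tumours were Ccnd1, with 541 CPM in KPH2 1 and 395 to 1220 CPM in the others, and E2f2. These genes were picked for their place in KPH2 1 after their values were seen. Beside them, the summed level of 10 proliferation markers was 1342 CPM in KPH2 1, inside the 924 to 1433 CPM of the KP tumours. Macrophage markers summed to 2199 CPM in KPH2 1, 1654 to 2501 CPM in KPH2 2 to KPH2 4 and 2295 to 4306 CPM in KP. Endothelial markers summed to 250, 328 to 336 and 342 to 596 CPM. The part of these cell types and of muscle in the result was not tested.

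**Figure D4:**
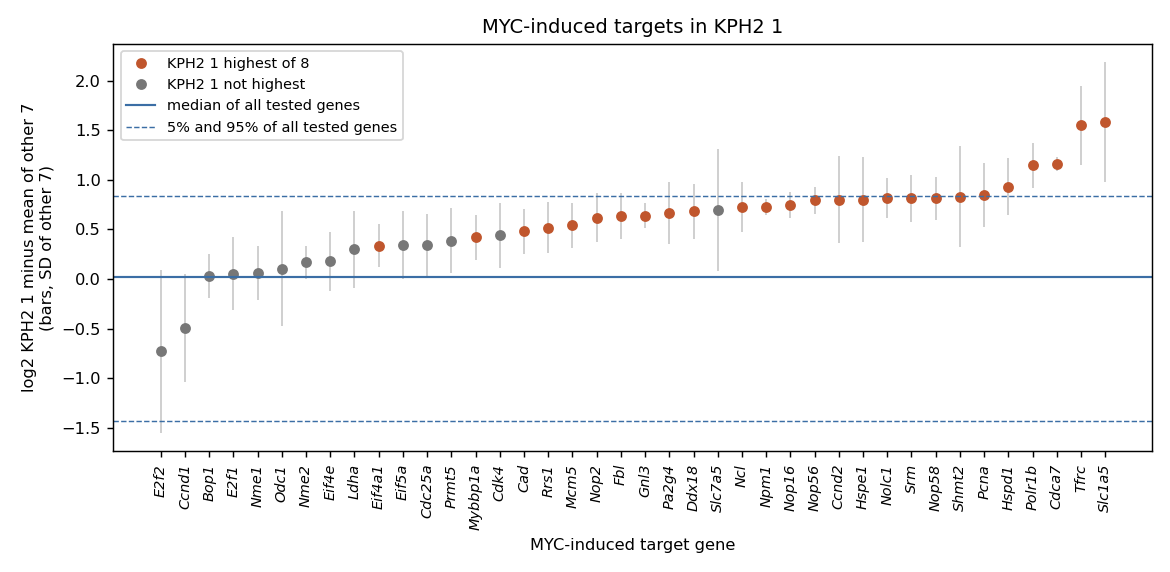
Log2 level in KPH2 1 minus the mean of the other 7 tumours (bars, SD of the other 7) for the 40 MYC-induced targets, ordered by that difference; lines mark the median (0.02), the 5% point (−1.43) and the 95% point (0.83) of all tested genes, and colour marks the 26 targets for which KPH2 1 was the highest of 8. Of the 40 points, 38 lie above 0.

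The targets were also split by the E-box. Of 31 MYC-induced targets with a promoter in the RefSeq table, 9 held CACGTG in the 300 bases. KPH2 1 was the highest of 8 for 44.4% of those 9 (median difference 0.34) and for 72.7% of the 22 without it (0.70). Over all tested genes with a promoter, it was the highest for 20% of the 1302 with the E-box and 18.5% of the 10015 without.

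Of 12 genes known to be repressed by MYC, none was called by edgeR, 5 had an unadjusted p under 0.05 (17.8% of all genes) and DESeq2 called 3 (7.93%), of which Cdkn1a and Ndrg2 were higher and Gas1 lower. The median log2 fold change was −0.22, and KPH2 1 was the highest for 1 (17.8% of all genes) and the lowest for 2 (14.7%). Cdkn1a, the cell-cycle inhibitor p21, separated the groups and also KPH2 1 from its group. It had 17.9, 29.7, 24.1 and 22.6 CPM in KP 5 to KP 8, 65.3, 48.4 and 39.2 CPM in KPH2 2 to KPH2 4 and 14.8 CPM in KPH2 1, the lowest of 8 (log2 fold change 1.12, SE 0.23, adjusted p = 0.0515, edgeR). Ndrg2, a gene also strong in muscle, had a log2 fold change of 1.32 (SE 0.39, adjusted p = 0.131). The growth-arrest gene Gas1, at −1.46 (SE 0.46, adjusted p = 0.148), and Thbs1, encoding thrombospondin, at −0.98 (SE 0.38, adjusted p = 0.227), had negative log2 fold changes, and none of the 4 passed in edgeR.

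The genes whose log2 CPM most resembled Myc and Pvt1 were named from 11789 genes with a mean of at least 5 CPM, as a description over libraries that share their preparation. Over the 7 tumours they were Pygl, Kdm3a, Gm10389, Atf7 and Atg13 for Myc (r = 0.94 to 0.96), and Mtrf1l, Atad2, Katna1, Sarnp and Arhgap18 for Pvt1 (r = 0.94 to 0.98). Atad2 is itself a chromosome 15 gene, 3.89 Mb before Myc. Over all 8 tumours, where KPH2 1 sets the correlation, they were Rps25, Rpia, Rpa3, Rpl3 and Mtrr for Myc (r = 0.96 to 0.97). For Pvt1 they were H2afy3, Bbs12, Cdca7, Rrp1b and Wwtr1 (r = 0.98 to 0.99). None of the first 5 genes stayed in the list when KPH2 1 was added, for either gene.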

How the data were processed

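The authors extracted RNA from formalin-fixed, paraffin-embedded tumour sections, prepared stranded libraries after ribosomal RNA depletion, mapped reads with STAR 2.4 (GRCm38), and used HTSeq 0.6.1 to count those that aligned once, by RefSeq gene (per the methods and the submitters' processing notes). They deposited raw counts per gene, without normalization, and log2 values from the regularized log transformation of DESeq2 1.6, for 7 and for 8 tumours. The 7 tumours of the smaller table (4 KP, 3 KPH2) were taken as the study's samples, since its methods excluded 1 knockout tumour, judged a technical outlier from principal components of the raw counts. Counts were compared in R 4.3.3 with edgeR 4.0.16 (TMM normalization, minimum count 10, minimum total count 15, robust quasi-likelihood test, no covariates), with Benjamini-Hochberg adjustment over the 14867 genes tested and a threshold of 0.05. CPM used TMM factors over all 8 libraries, and log2 CPM a prior count of 2. Intervals cover 95%. Levels per kb used the exon length of RefSeq-matched GENCODE transcripts, and gene positions, the promoter sequences and the neighbours came from RefSeq, GRCm38.p6, in which 24598 of 26667 symbols were matched.

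The 10 genes and all gene lists were chosen with earlier results of these data known. In the text the 10 genes and Epas1 are named, with 4 genes or every called gene of each list in order of p, the 3 nearest tested neighbours on each side of Myc with any within 5 Mb that was highest in KPH2 1, and the 5 genes most correlated with Myc or Pvt1. Named after their values were seen were neighbours that were called or whose groups lay apart, and further MYC-induced targets picked for their place in KPH2 1. All listed genes were found except Trac. Alternatives were all 8 tumours, DESeq2 1.42.0, other scalings and filters, edgeR without robust estimates, a skeletal muscle covariate and leaving out each tumour. The differences in the authors' log2 values over 7 tumours, the scalings for the targets in KPH2 1 and the alternatives for 9930014A18Rik and Fbxo32 were added after seeing the data. On simulated counts for 14867 genes with 200 changed by a log2 fold of 2, edgeR found 162 of them (5 false calls) and DESeq2 180 (36 false calls). No 2 libraries agreed within sampling noise (chi-square over its degrees of freedom, 30.4 in the closest pair). The p-values measure the spread between tumours, 1 per animal as far as the labels say. A further allele that both strains carry is not reported here.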

Additional observations from a re-analysis of the deposited data

Results flagged for a closer look

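Outliers were sought in 50 of the genes named in the text. In 12 of 100 pairs of a gene and a group, 1 tumour stood apart from the other 3 of its group on the log2 scale. The gap of that tumour to the nearest, as a share of the group's range, was above 0.829. Chance passes that value in about 5% of groups. In KP 5, Epas1 (59.1 CPM, share 0.889) and Thbs1 (599 CPM, share 0.882) were low. In KPH2 4, Aurka was high (45.9 CPM, share 0.906) and Prmt5 low (68.6 CPM, share 0.866). The other 8 pairs had KPH2 1 apart from KPH2 2 to KPH2 4. There the MYC-induced target Slc1a5 was high (160 CPM, share 0.900), as was 9930014A18Rik near Myc (7.45 CPM, share 0.936). Also high were 5 other MYC-induced targets, Cdca7 (61.1 CPM, share 0.901), Polr1b (104 CPM, share 0.876), Npm1 (901 CPM, share 0.849), Nop16 (53.2 CPM, share 0.910) and Gnl3 (126 CPM, share 0.854). Fbxo32 was low (22.4 CPM, share 0.830). Some of these targets were named in the text for their place in KPH2 1, so their number is a description. None of the 10 network genes was past this value in either group of 4, Myc and Pvt1 in KPH2 1 included.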

How the results depend on the processing

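Over 7 tumours 292 genes were called, and none of the 10 network genes, the cofactors or the turnover genes was called under any alternative in which it was tested. The count was 1 with all 8 tumours, 1179 with DESeq2, 3 with the skeletal muscle score as a covariate and 55 to 349 without single tumours (fewest without KPH2 2, and at most 159 without any tumour but KP 5). The count of other network proteins was 1 with DESeq2. Of the MYC-induced targets, 0 were called with all 8 tumours, upper-quartile scaling, a mean count of at least 50 or the muscle covariate, 2 without a filter, 3 with DESeq2 and 0 to 1 without single tumours (1 without KP 5). Of the MYC-repressed targets, 1 was called with upper-quartile scaling, without a filter or without robust estimates, 3 with DESeq2 and 0 to 2 without single tumours (2 without KP 5). The log2 fold change of Epas1 was −0.81 with DESeq2, there past the threshold, and −0.96 to −0.71 without single tumours, past it only without KP 5 (adjusted p 0.0442 to 0.219, edgeR). With all 8 tumours it was −0.91 (adjusted p = 0.117, edgeR). With the muscle covariate it was −0.64 (SE 0.38, adjusted p = 0.83, edgeR). The log2 fold change of 9930014A18Rik was not past the threshold with all 8 tumours, with the muscle covariate or without any single tumour but KP 5 (−2.30 to −1.75, adjusted p 0.0395 to 0.144, edgeR). The cause of these changes was not tested.

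In the authors' deposited log2 values, which shrink differences, KPH2 1 lay 1.602 (Myc) and 3.25 (Pvt1) above the others. The 10 genes' log2 fold changes had 158 alternative values. These were refits and, for each gene, the difference between the groups in the authors' smaller table of log2 values. Of the 158, 148 moved by less than the SD between tumours of a group and 10 by more. The 10 that moved by more were all refits. With the muscle covariate Mxd1 went from −0.42 to 0.14, Mycn from 0.43 to −2.09, Mxd4 from 0.15 to −0.54, Pvt1 from −0.17 to 0.20, Mxd3 from −0.22 to −0.79, Max from −0.06 to −0.30 and Mlx from 0.01 to 0.25. Across the scalings, 26 to 27 MYC-induced targets were highest in KPH2 1, with 12.6% to 17.8% of all genes. No paired analysis was possible because the replicate numbers are not shared between KP and KPH2. Low counts limit Mycn and Mxd3, and 1 tumour limits what is said of KPH2 1.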
